A study of Mus musculus with 12 samples.

Results

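Glycolysis enzymes were followed as 10 genes, Hk1, Hk2, Gpi1, Pfkl, Pfkm, Pfkp, Eno2, Ldha, Ldhb and Pdk1, in the forebrain of newborn mice. They were chosen by name. For each gene the probe set, the group of array probes read as 1 value, that names it alone was taken, and the brightest one where there was more than 1. Of the 10 genes 9 had such a probe set, among 19938 genes on the array, and all 9 passed the filter on dim genes that 14195 genes passed. Gpi1, which encodes the second enzyme of the pathway, had no probe set in the annotation used and was not analysed here.

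RNA was measured on 12 Affymetrix arrays, 3 biological replicates for each of 4 genotypes, all at postnatal day 0. GBS mice were hGFAP-cre::Ctnnb1(ex3)Fl/+SmoM2Fl/+ and their samples are labelled tumor. GS mice were hGFAP-cre::SmoM2Fl/+, GB mice were hGFAP-cre::Ctnnb1(ex3)Fl/+, and Control mice were Ctnnb1(ex3)Fl/+SmoM2Fl/+ without Cre. SmoM2 encodes a permanently active Smoothened, the signal transducer of the Sonic hedgehog pathway, and loss of exon 3 from Ctnnb1 leaves a beta-catenin that escapes degradation. A human GFAP promoter switches on the Cre in radial glia and cells derived from them, so cells outside that lineage keep unrecombined alleles. Only Control mice lacked Cre, and an effect of Cre itself cannot be told apart from that of the alleles in any comparison with Control. Values are on a log2 scale, where a difference of 1 is a 2-fold change.

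Glycolysis turns glucose into pyruvate. Hexokinases trap glucose in the cell, phosphofructokinases commit it to the pathway, enolase makes the last intermediate before pyruvate, and lactate dehydrogenases exchange pyruvate with lactate. Pyruvate dehydrogenase kinases, of which Pdk1 is 1, restrain the oxidation of pyruvate in the mitochondria. Progenitors and many tumors send much pyruvate to lactate, and mature neurons rely more on oxidation. Several of these enzymes come as isoforms with different tissue preferences, which is why they are described here gene by gene.

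The arrays of a genotype were not equally alike. GB replicate 2, GS replicate 3 and Control replicate 3 deviated from their groups in a shared direction, and results that rest on them are given with and without them. Over 12 marker genes of postmitotic neurons, all of them tested, the mean level was 7.72 in GB replicate 2 against 8.97 and 9.07 in the other GB arrays. GS replicate 3 had 8.65 against 9.51 and 9.50, and Control replicate 3 had 8.77 against 9.08 and 9.01. In GBS the same markers averaged 8.41, 8.05 and 8.77. Olfactory and vomeronasal receptor genes, read here as a measure of background, had an array median of 4.84 to 4.92 in GBS and 5.12 to 5.23 in Control, a mean difference of -0.29. These ranges did not overlap. Where this level is used as a covariate below, it cannot be fully told apart from genotype in GBS against Control. In a tissue sample, fewer cells of a type and less RNA per cell cannot be told apart.

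Tumors were first set against Control forebrain. Ldha, the lactate dehydrogenase subunit that predominates in glycolytic tissue, rose 2.69-fold in the tumors, and Eno2, the neuronal enolase, was lower at 0.786 of the Control level. The other 7 measured genes did not pass the test by the probe sets chosen. A dimmer Hk1 set, described below and not counted here, was lower (-0.41, limma adjusted p = 0.0108). Limma, with Benjamini-Hochberg adjustment over all 14195 genes, thus called 1 of 9 members higher and 1 of 9 lower, where 11% and 4.35% of all genes were called in those directions. The members' median difference was 0.11, and that of all genes was -0.10. GBS and Control arrays did not overlap for 5 members, 2 of them higher and 3 lower. The 2 higher ones were Ldha and Hk1, the latter by its brighter probe set. The dimmer Hk1 set was lower without overlap. Over all genes, 28.8% were higher and 35.7% lower without overlap. With GB replicate 2 left out, limma called 1 member higher and 2 lower, against 23% and 20.2% of all genes, and with all 3 deviating arrays left out again 1 and 2, against 23.5% and 18.9%. Counts below that leave out these arrays are to be read against those shares. Other counts below of genes called in GBS against Control are to be read against 11% higher and 4.35% lower. In numbers the members therefore stood near the background, and what follows is about single genes.

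**Figure D1:**
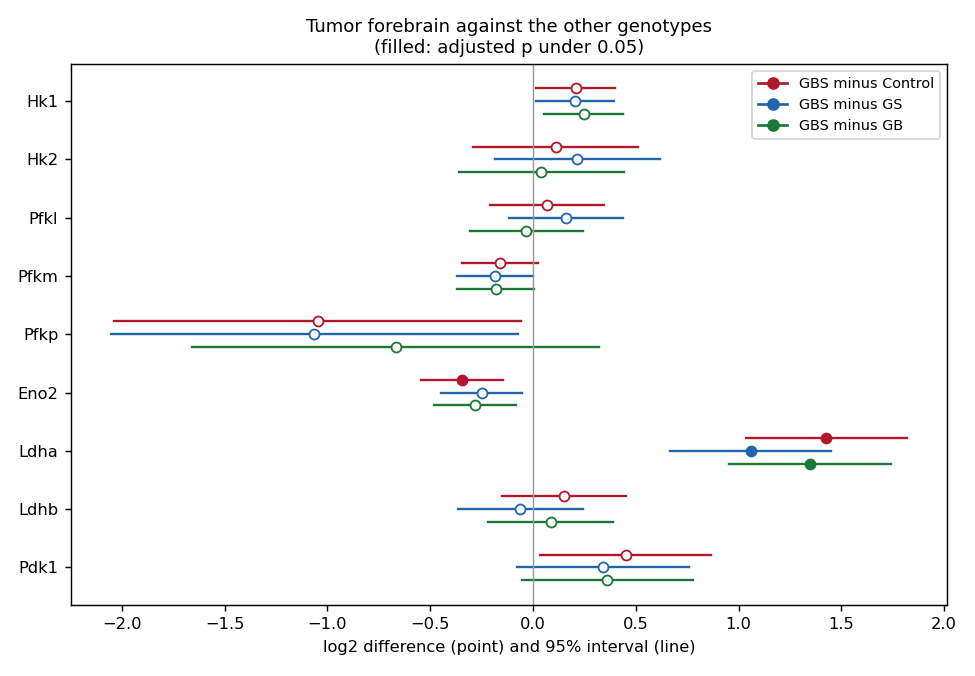
Differences of GBS from Control, GS and GB for the 9 measured genes, on the log2 scale, with 95% intervals from the fit; filled points passed an adjusted p of 0.05. Ldha passed in all 3 comparisons (1.43, 1.06 and 1.35), Eno2 only in GBS minus Control (-0.35), and Pfkp had the widest intervals.

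Ldha carried the clearest difference. Its values were 8.11, 8.18 and 7.96 in Control, 8.19, 8.08 and 8.22 in GB, 8.62, 8.55 and 8.18 in GS, and 9.44, 9.92 and 9.16 in GBS. The 3 tumor arrays lay above all others, with GBS replicate 2 the highest, and the arrays of the other genotypes overlapped each other. Ldha averaged 9.51 ± 0.385 in GBS and 8.08 ± 0.111 in Control (SD, n = 3 each), a difference of 1.43 ± 0.178 (SE) with an adjusted p = 0.000755. Against GS the difference was 1.06 (adjusted p = 0.00735) and against GB 1.35 (adjusted p = 0.00167). All 3 calls held in each of the 24 other settings, in which the adjusted p against Control ran from 9.79e-06 to 0.00572, against GS from 0.000359 to 0.0301 and against GB from 3.85e-05 to 0.0495. In order of mean level the genotypes ran Control, GB, GS and GBS, and among neighbours in that order only GS and GBS differed past the test.

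The start of Ldha is shown because it is the member that rose, beside that of Eno2, the member that was lower. Both are 300-base windows from RefSeq, assembly GRCm38.p6, from 250 bases before to 50 bases after a start site. Ldha is at chr7:46845554-46845853 on the plus strand and Eno2 at chr6:124769624-124769923 on the minus strand, each printed 5′ to 3′ along its gene. Capitals mark ACGTG or GCGTG on either strand, the core that hypoxia-inducible factors (HIF) can bind.
Ldha: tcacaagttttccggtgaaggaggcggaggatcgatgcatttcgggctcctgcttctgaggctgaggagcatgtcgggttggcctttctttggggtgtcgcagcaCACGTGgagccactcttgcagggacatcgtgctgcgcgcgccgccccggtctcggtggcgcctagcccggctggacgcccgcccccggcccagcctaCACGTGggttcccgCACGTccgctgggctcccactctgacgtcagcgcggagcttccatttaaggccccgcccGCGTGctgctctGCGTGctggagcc
Eno2: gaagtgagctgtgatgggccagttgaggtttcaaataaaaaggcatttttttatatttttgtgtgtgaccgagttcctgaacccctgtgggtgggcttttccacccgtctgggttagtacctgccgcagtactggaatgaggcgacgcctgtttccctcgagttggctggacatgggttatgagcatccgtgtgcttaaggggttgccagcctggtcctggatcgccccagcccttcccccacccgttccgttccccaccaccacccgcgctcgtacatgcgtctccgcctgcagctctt
The Ldha window shown, the one of its 2 with more matches, held 7, counted on both strands with overlaps, and the Eno2 window held 0. The other Ldha window, at chr7:46846832-46847131, held 2, with 0 copies of CACGTG. Of the 7, 4 come from 2 copies of the palindrome CACGTG, an E-box that MYC proteins can bind. ACGTG or GCGTG was in 43.8% of 32817 such windows on the array's organism, and CACGTG in 7.1%. Among the 16 windows listed for the 10 members, 11 held ACGTG or GCGTG and 2 held CACGTG, in Ldha and in Pfkm. The window of Pfkp, the member with the lowest difference, held 4 matches of ACGTG or GCGTG, and the windows of Hk1 held 0 and 5. CTTTGA or CTTTGT, the core read by the TCF and LEF partners of beta-catenin, was in 4 of the 16 windows and 31.2% of all windows. The GLI motif TGGGTGGTC was in 0 of the 16 and 0.3% of all. These matches describe letters, and binding was not measured.

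Ldhb, the subunit that predominates in oxidative tissue, did not pass the test. Its brighter probe set read 7.38, 7.51 and 7.16 in Control and 7.45, 7.47 and 7.58 in GBS. These arrays overlapped, and the difference of 0.15 had a 95% interval from -0.15 to 0.46 (limma adjusted p = 0.386). The interval lies below that of Ldha, from 1.04 to 1.82. A dimmer Ldhb probe set gave -0.10, with an interval from -0.34 to 0.13. The sign thus differed between the sets, and neither passed the test in any comparison. In GB the dimmer set read 6.42, 6.40 and 6.51, below all Control arrays (6.79, 6.72 and 6.54), a difference of -0.24 that limma did not call (adjusted p = 1).

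**Figure D2:**
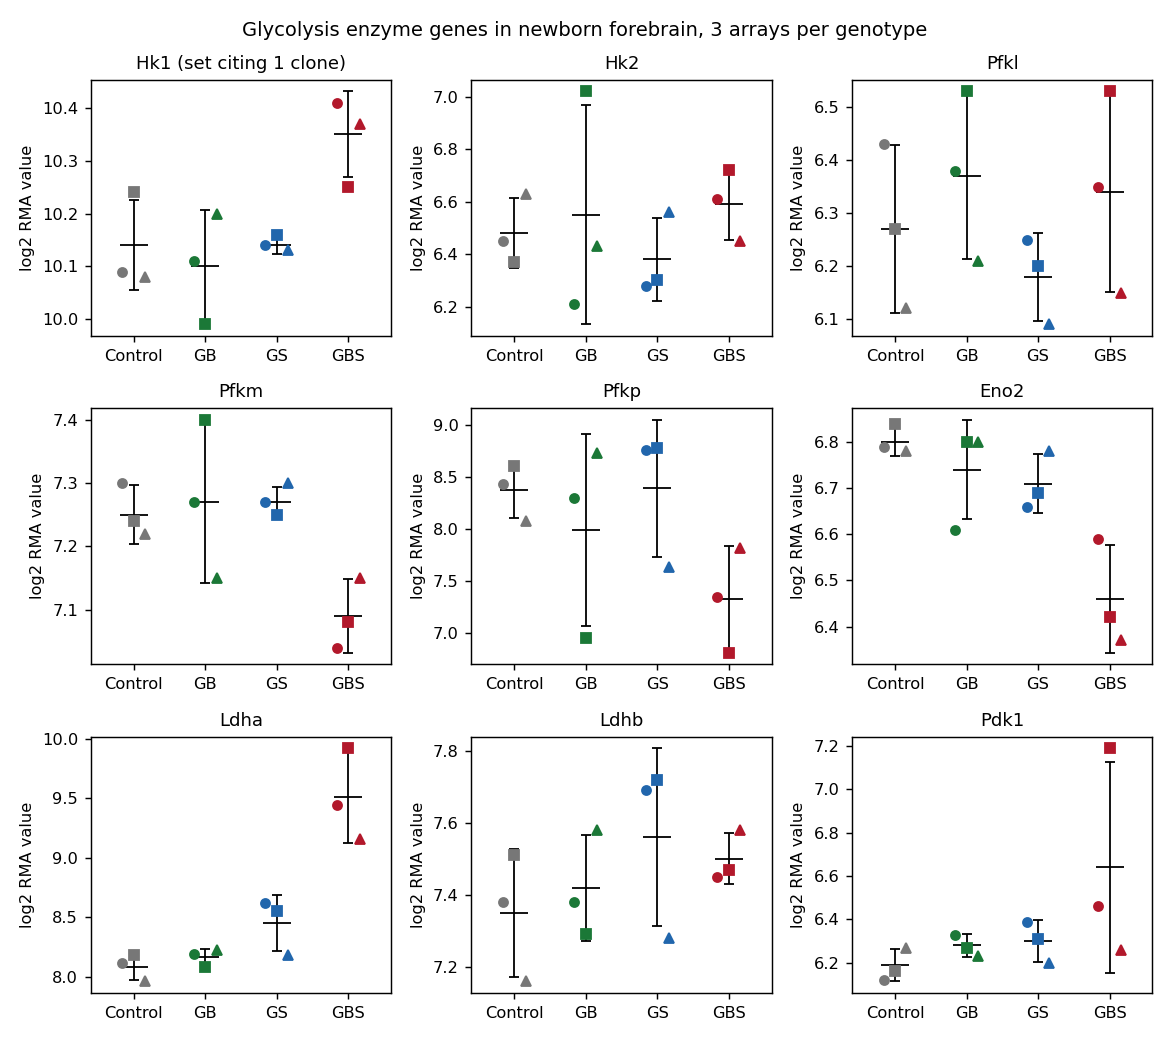
Log2 values of the 9 measured genes in each array by genotype, with circles, squares and triangles for replicates 1, 2 and 3, and lines for the mean and SD of 3 arrays; each panel has its own axis. Ldha in GBS (9.16 to 9.92) lies above every other array, and Eno2 in GBS (6.37 to 6.59) lies below every other array.

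Pdk1, whose kinase restrains the oxidation of pyruvate in the mitochondria, was highest in 1 tumor array. Its values were 6.12, 6.16 and 6.27 in Control and 6.46, 7.19 and 6.26 in GBS. GBS replicate 2 stood apart, and GBS replicate 3 lay within the Control range. The difference of 0.45 ± 0.189 (SE) did not pass the test (limma adjusted p = 0.110), and without GBS replicate 2 it was 0.18 (adjusted p = 0.308). Pdk1 is dim here, and only 6 of its 12 arrays lay above the filter level. In GB it read 6.23 to 6.33 and in GS 6.20 to 6.39.

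Markers of dividing cells were read beside Ldha and Pdk1. Over 7 markers, all tested and all higher in GBS than in Control, the mean level was 6.55 to 6.78 in Control, 6.44 to 6.92 in GB, 7.15 to 7.56 in GS and 8.38 to 9.30 in GBS. GBS replicate 2 was highest for these markers, for Ldha and for Pdk1, and GBS replicate 3 was the lowest tumor array for all of them. GS replicate 3, with a marker level of 7.56, had the lowest Ldha value in GS. Pdk1 in GBS replicate 3, with a marker level of 8.38, was 6.26 and within the Control range. The part of dividing cells in the Ldha difference was not tested.

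**Figure D3:**
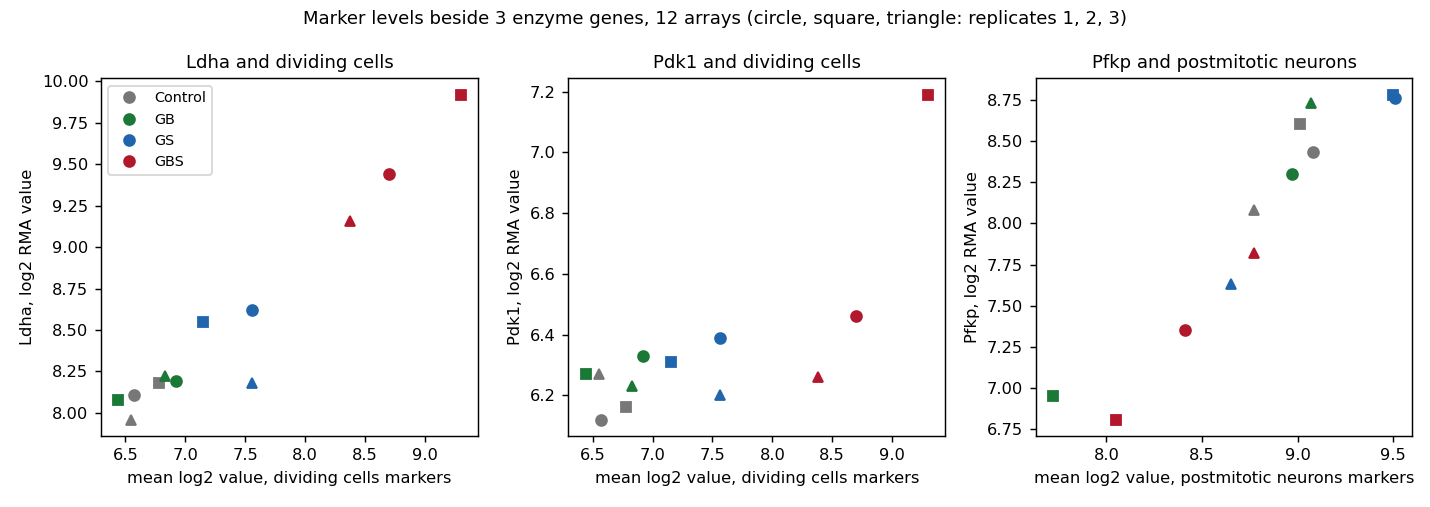
Level of 3 genes in each of the 12 arrays (vertical, log2) against the mean log2 level of a marker list (horizontal), coloured by genotype. Ldha and Pdk1 are highest in GBS replicate 2, which also has the highest level of dividing-cell markers (9.30), and Pfkp is lowest in GBS replicate 2 and GB replicate 2, the arrays with the lowest neuronal markers (8.05 and 7.72).

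The hexokinase genes come at the entry of the pathway. For Hk1, the isoform of most tissues and of brain, the array has a pair of probe sets, and they went opposite ways. The brighter set, taken by the rule, cites a single clone accession and no RefSeq transcript. It read 10.09, 10.24 and 10.08 in Control and 10.41, 10.25 and 10.37 in GBS, a difference of 0.21 ± 0.0868 (SE) that did not pass the test (limma adjusted p = 0.109). The same clone is listed for 16 probe sets shared with the ribosomal protein gene Rpl17, whose 12-array means ran from 9.29 to 10.53. Of these 16 sets 15 were called higher in GBS and 0 lower, by 0.43 to 0.64. Which RNA the brighter Hk1 set reads is therefore uncertain.

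The dimmer Hk1 set cites RefSeq transcripts and was lower in the tumors. It read 6.90, 6.77 and 6.80 in Control, 6.74, 6.83 and 6.72 in GB, 6.97, 6.99 and 6.77 in GS, and 6.44, 6.38 and 6.44 in GBS. The 3 tumor arrays lay below all 9 others. In a fit of 15595 probe sets on their own, of which 4.39% were called lower in this comparison, the difference from Control was -0.41 ± 0.0855 (SE; limma adjusted p = 0.0108). The set was also lower against GS (-0.49, adjusted p = 0.00795) and against GB (-0.35, adjusted p = 0.0276). In those comparisons 1.5% and 3.19% of probe sets were called lower, and 3.94% and 10.7% higher. Without Control replicate 1 the first call ended (-0.37, adjusted p = 0.0516). The call against GB held in 14 of 22 other settings. It ended without any single GBS array, without GB replicate 2, with the replicate block (adjusted p = 0.0647), with arrays centred on their medians (-0.27, adjusted p = 0.0659), after quantile normalization (-0.27, adjusted p = 0.0772) and in a fit of GBS and GB alone (adjusted p = 0.134). With the receptor-gene level as a covariate the difference from Control was -0.45 (adjusted p = 0.0172). This set was examined after the values of the brighter one were seen.

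**Figure D4:**
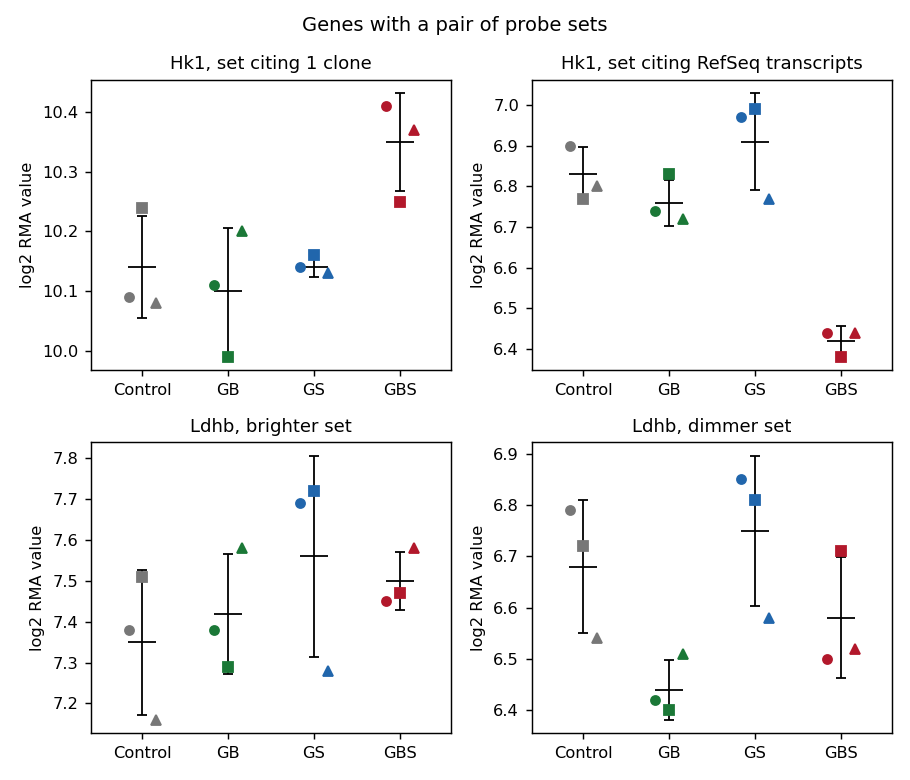
Log2 values by genotype for the pairs of probe sets of Hk1 and Ldhb, with the mean and SD of 3 arrays and a separate axis in each panel. In GBS the Hk1 set that cites 1 clone is at 10.25 to 10.41, above Control, while the set that cites RefSeq transcripts is at 6.38 to 6.44, below Control.

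Hk2, the inducible hexokinase of muscle and many tumors, did not pass the test. It read 6.45, 6.37 and 6.63 in Control and 6.61, 6.72 and 6.45 in GBS, and these arrays overlapped. The difference was 0.11 with a 95% interval from -0.29 to 0.51 (limma adjusted p = 0.627). With the receptor-gene level as a covariate the difference was 0.53 (limma adjusted p = 0.0502). Hk2 is dim here and near the filter level, which limits what can be seen in it. The highest value, 7.02, was in GB replicate 2, where the other GB arrays had 6.21 and 6.43. In GS it read 6.28, 6.30 and 6.56.

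None of the 3 phosphofructokinase genes passed the test in GBS against Control. Pfkp, the platelet form, which brain also uses, had the lowest difference of the members. Its values were 8.43, 8.60 and 8.08 in Control, 8.30, 6.95 and 8.73 in GB, 8.76, 8.78 and 7.63 in GS, and 7.35, 6.81 and 7.82 in GBS. All tumor arrays lay below all Control arrays, but GB replicate 2 and GS replicate 3 were as low as tumor arrays. The difference of -1.05 ± 0.449 (SE) did not pass the test (limma adjusted p = 0.116). With GB replicate 2 left out, an array that bears on the spread alone, the same difference passed (adjusted p = 0.024). Leaving out all 3 deviating arrays gave -1.19 (adjusted p = 0.00269), a fit of GBS and Control alone an adjusted p = 0.00905, and array weights -0.94 (adjusted p = 0.00633). With the receptor-gene level as a covariate it was -2.22 (adjusted p = 0.00245). These 5 of the 24 other settings passed, and the rest did not. Without GBS replicate 2 the difference was -0.79 (limma adjusted p = 0.338).

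The level of Pfkp moved with that of neuronal markers. GB replicate 2 and GBS replicate 2 had the lowest Pfkp and the lowest neuronal markers of all arrays, and GS replicates 1 and 2 had the highest of both. In GS and Control, replicate 3 was the lowest array for each. Of the 12 neuronal markers 0 were called higher and 2 lower in GBS against Control, the growth cone gene Gap43 (-1.48) and the tau gene Mapt (-0.56). Elavl4 went the other way without a call, with a mean of 7.06 in Control and 7.59 in GBS. Without GB replicate 2 the markers called lower were 6 and those called higher 0. With all 3 deviating arrays left out, 8 were called lower and 1 higher. The part of neurons in the Pfkp values was not tested.

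Pfkm, the muscle form, read 7.04, 7.08 and 7.15 in GBS against 7.30, 7.24 and 7.22 in Control. These arrays did not overlap, but the difference of -0.16 did not pass the test (limma adjusted p = 0.169), with a 95% interval from -0.35 to 0.03. Skeletal muscle markers, 4 of 6 above the filter, had a mean level of 6.57 to 6.71 in GBS and 6.77 to 6.92 in Control, and limma called 0 of the 4 (0 also at an unadjusted p under 0.05, and 2 lower without GB replicate 2). Their part in the Pfkm values was not tested. Pfkl, the liver form, read 6.43, 6.27 and 6.12 in Control and 6.35, 6.53 and 6.15 in GBS. Its difference was 0.07 with an interval from -0.21 to 0.34 (adjusted p = 0.668). Pfkl is dim, and 6 of 12 arrays lay above the filter level.

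Eno2, an enolase used as a marker of mature neurons, was the member called lower. Its values were 6.79, 6.84 and 6.78 in Control, 6.61, 6.80 and 6.80 in GB, 6.66, 6.69 and 6.78 in GS, and 6.59, 6.42 and 6.37 in GBS. Every tumor array lay below every other array, and the other genotypes overlapped except GS and Control, where GS was lower by a mean of 0.10 without passing the test (limma adjusted p = 0.662). The difference from Control was -0.35 ± 0.0902 (SE; adjusted p = 0.0285). The call ended when GBS replicate 2, GBS replicate 3 or 1 of the Control arrays was left out (adjusted p = 0.0811 to 0.110), after quantile normalization, with the replicate number as a block (adjusted p = 0.0711) and with the receptor-gene level as a covariate (-0.26, adjusted p = 0.142). Eno2 lay near the middle of the array, and the receptor-gene level differed by -0.29 between the same groups. Neuronal markers were lower in 2 of the 3 GBS arrays than in any Control array. GBS replicate 3 had the highest neuronal markers in GBS (8.77) and the lowest Eno2 (6.37). GB replicate 2 had the lowest neuronal markers of all arrays (7.72) and an Eno2 of 6.80. The part of neurons in the Eno2 difference was not tested. Against GS (-0.25, adjusted p = 0.153) and GB (-0.28, adjusted p = 0.0604) it did not pass.

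For both called members the genes with the most similar profiles were named, by the root mean square difference of log2 values over 12 arrays after centring each gene on its own mean. For Ldha they were Aifm1, a mitochondrial flavoprotein gene, at 0.0932, Rrm1, which encodes the large subunit of ribonucleotide reductase, at 0.107, and Ubxn2a, also at 0.107. For Eno2 they were Epb41l4b at 0.055, Slc41a2 at 0.0608 and Baalc at 0.0621.

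No member passed the test with a single allele. In GS against Control limma called 0 of 9 members (0 at an unadjusted p under 0.05), where 0.0211% of all genes were called higher and 0% lower. Eno2 alone did not overlap between these groups, where 8.09% of all genes were higher and 9.43% lower without overlap. Ldha was 0.37 higher in GS, with a 95% interval from -0.02 to 0.76 (adjusted p = 0.645). In GB against Control 0 of 9 members were called (0 at an unadjusted p under 0.05), and 0% of all genes were called in either direction. All 9 members overlapped between GB and Control, against 3.01% of genes higher and 1.09% lower without overlap. Ldha differed by 0.08 there, with an interval from -0.31 to 0.47, and Pfkp by -0.38, with an interval from -1.37 to 0.61. Between GS and GB limma called 0 of 9 members (0 at an unadjusted p under 0.05), and 0.00704% of all genes in each direction. All 9 overlapped there, with 4.45% of genes higher and 5.11% lower without overlap.

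In the tumors against each single allele, 1 of 9 members was called higher and 0 lower. That gene was Ldha in both comparisons, with a background of 3.56% higher and 1.51% lower against GS, and of 9.6% and 3.12% against GB. At an unadjusted p under 0.05, 2 members were higher and 2 lower against GS (10.7% and 7.92% of all genes), and 2 higher and 1 lower against GB (21.9% and 19.8%). Arrays did not overlap for 2 members higher and 2 lower against GS (16.5% and 12.4% of all genes), and for 2 higher and 1 lower against GB (24.2% and 23.7%). By unadjusted p and by overlap, the 2 higher members were Ldha and Hk1, the latter by its brighter probe set. These comparisons share the GBS arrays with GBS against Control. The interaction, which asks whether the tumor value departs from the sum of both single-allele differences, was 0.98 ± 0.252 (SE) for Ldha and did not pass the test (limma adjusted p = 0.216; 0 of 9 members called, 1 at an unadjusted p under 0.05). Its 95% interval ran from 0.42 to 1.53, and over all genes 0.324% were called higher and 0.00704% lower.

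The rest of the pathway was read from lists of named genes. In GBS against Control with all arrays, 11% of all genes were called higher and 4.35% lower. Of 19 other glycolysis enzyme genes 14 were tested, and 1 rose and 0 fell in GBS against Control, with a list median of 0.11. The riser was Pgk1, which encodes phosphoglycerate kinase, the first ATP-yielding step. It has 3 probe sets that name it alone, and the values given are those of the brightest, which cites RefSeq. Pgk1 read 8.17, 8.21 and 7.74 in Control, 8.22, 7.48 and 8.28 in GB, 8.69, 8.72 and 8.21 in GS, and 9.63, 10.42 and 9.31 in GBS. As for Ldha, the tumor arrays lay above all others and GBS replicate 2 was highest. The difference of 1.74 ± 0.295 (SE; limma adjusted p = 0.00418) held in all 24 other settings, and was 1.085 (adjusted p = 0.0247) with the receptor-gene level as a covariate.

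Next in the list were Pkm, which makes pyruvate, at 0.38, Pgam1, a mutase of the lower pathway, at 0.61, and Tpi1, which interconverts the triose phosphates, at 0.35, with adjusted p of 0.0617, 0.0707 and 0.0847. None of these passed with all arrays and the settings used throughout. Pgam1 has 3 probe sets that name it alone and Pkm 2, and the values are those of the brightest. Without GB replicate 2 the list had 4 of 14 genes called higher, against 23% of all genes in that fit, and without the 3 deviating arrays 5, against 23.5%. Gapdh and Eno1 were among the genes without a probe set of their own, and Ldhc lay below the filter.

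Pyruvate entry into mitochondria had 10 tested genes, of which 1 rose and 0 fell (median 0.29). It was Pdk3, another pyruvate dehydrogenase kinase, at 6.07, 6.22 and 6.02 in Control and 6.66, 7.42 and 7.26 in GBS. These groups did not overlap, and the rise of 1.01 ± 0.162 (SE; limma adjusted p = 0.00318) held in the 23 other settings that tested it. Pdk3 was also higher against GS (0.77, adjusted p = 0.0213) and GB (0.89, adjusted p = 0.00854). Subunit genes of the pyruvate dehydrogenase complex, Pdhx (0.49), Dlat (0.32) and Pdha1 (0.35), did not pass (adjusted p = 0.0649 to 0.0728). With the receptor-gene covariate the differences of Pdhx, Dlat and Pdha1 were 0.11, 0.09 and 0.06. Without GB replicate 2, 6 genes of this list were called higher, and without the 3 deviating arrays 6 higher and 1 lower.

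Among 10 tested glucose and lactate transporters 0 rose and 1 fell (median -0.14). Slc2a13, a transporter of inositol rather than glucose, decreased by 0.55 (log2; limma adjusted p = 0.0292). That call needed GBS replicates 2 and 3 and Control replicates 1 and 2, each of which ended it when left out (adjusted p up to 0.119), and it also ended with the replicate block (adjusted p = 0.0584) and with arrays centred on their medians (-0.48, adjusted p = 0.0795). With the receptor-gene covariate the difference was -0.90. Bsg, a partner that lactate carriers need at the membrane, was 0.59 higher (adjusted p = 0.0711), Slc2a6 was 0.29 lower (adjusted p = 0.0766) and the monocarboxylate carrier gene Slc16a7 was 0.86 lower (adjusted p = 0.108). With the receptor-gene covariate the differences of Bsg, Slc2a6 and Slc16a7 were 0.08, -0.16 and -1.77. Without GB replicate 2, 1 gene of the list was called higher and 4 lower. Slc2a1, the main glucose carrier of the blood-brain barrier, read 7.16, 7.16 and 7.31 in Control and 7.51, 7.52 and 7.23 in GBS, which overlap. It is named beyond the rule after its values were seen.

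Of 10 tested regulators and gluconeogenic genes limma called 0, the unadjusted p was under 0.05 for 2 lower ones, and the median was -0.09. The lowest adjusted p were those of Pck1 (-0.33, 0.104) and Pck2 (-0.31, 0.110), which encode phosphoenolpyruvate carboxykinases, and of Pgm2 (0.22, 0.131) and Pfkfb3 (0.27, 0.144), an activator of phosphofructokinase. Without GB replicate 2, Pck1 and Pck2 were called lower. With the receptor-gene covariate their differences were -0.01 and 0.006 (limma adjusted p = 0.972 and 0.981).

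In the side branches 2 of 9 tested genes rose and 1 fell (median -0.11). Psat1, which encodes an aminotransferase of serine synthesis, read 7.16, 7.17 and 7.11 in Control and 8.07, 8.44 and 8.22 in GBS, a rise of 1.09 ± 0.119 (SE; limma adjusted p = 0.000332). Rpe, an epimerase of the pentose phosphate pathway, rose by 0.73 ± 0.115 (adjusted p = 0.00287). Both calls held in all 24 other settings. Phgdh, the enzyme that draws serine synthesis off glycolysis, went the other way, at -0.44 (adjusted p = 0.0417), and leaving out GS replicate 2 or 1 of the GBS or Control arrays ended the call (adjusted p = 0.0567 to 0.154), as did centring arrays on their medians (adjusted p = 0.0684), trend and robust settings (adjusted p = 0.0847) and the receptor-gene covariate (adjusted p = 0.214). Rpia (-0.26, adjusted p = 0.203) did not pass.

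Hypoxia-linked genes outside glycolysis had 16 tested members, of which 2 rose and 1 fell, with a median of 0.29. Over all genes 11% were called higher and 4.35% lower. Kdm3a, which encodes a histone demethylase, read 7.18, 6.91 and 6.69 in Control and 8.30, 9.11 and 8.35 in GBS. It rose by 1.66 ± 0.257 (SE; limma adjusted p = 0.00256), a call that held in all 24 other settings, and by 1.095 (adjusted p = 0.0135) with the receptor-gene covariate. P4ha1, a collagen prolyl hydroxylase gene, rose by 0.97 (adjusted p = 0.0203). That call ended without any single Control array (adjusted p = 0.0607 to 0.0662) and with the receptor-gene covariate (adjusted p = 0.134), and the difference was 0.63 without GBS replicate 2. Ndrg1, often induced in hypoxia, decreased by 0.41 (log2; adjusted p = 0.0162), and leaving out GBS replicate 2 or Control replicates 1 or 3 singly ended that call, as did the receptor-gene covariate (-0.34, adjusted p = 0.0683). Arnt, the partner of HIF1A, was 0.43 higher without passing (adjusted p = 0.0616), and 0.07 higher with the receptor-gene covariate. Without GB replicate 2, 6 of these 16 genes were called higher and 1 lower, against 23% and 20.2% of all genes in that fit.

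**Figure D5:**
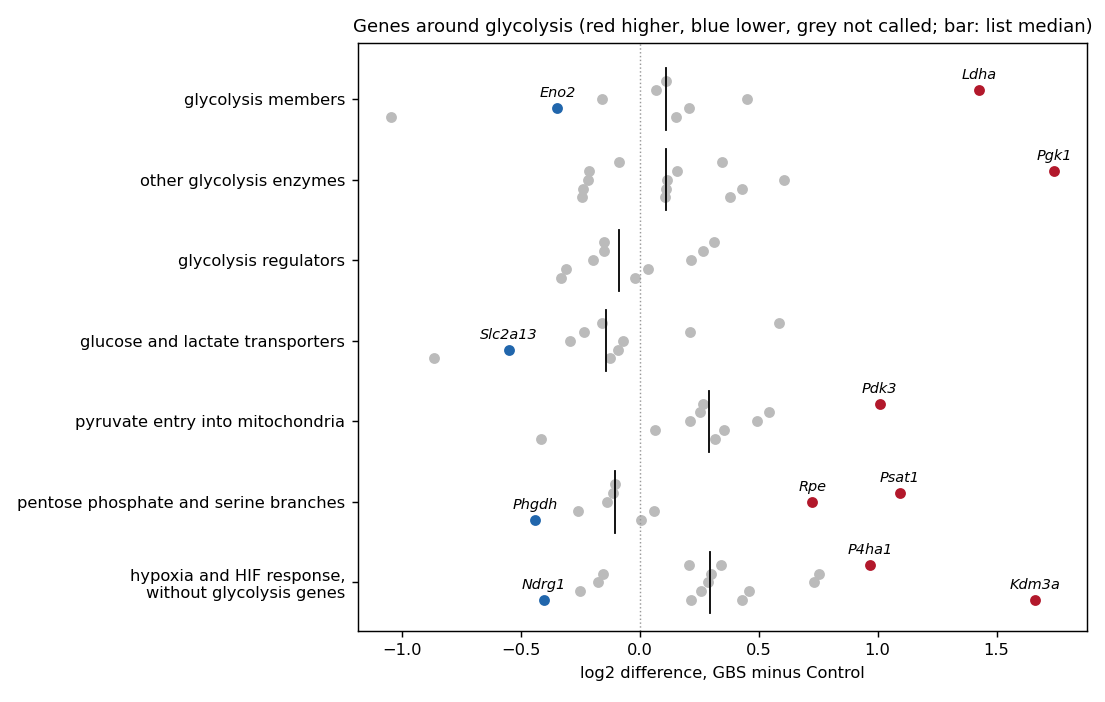
Difference of GBS from Control (log2) for each tested gene of the members and of 6 lists around glycolysis, with called genes in colour and the median of each list as a bar. Pgk1 (1.74), Kdm3a (1.66) and Ldha (1.43) lie farthest to the right, while most genes of each list were not called.

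Other cell markers were read beside these results, in GBS against Control, where 11% of all genes were called higher and 4.35% lower. Of 8 tested progenitor and radial glia genes 5 rose and 1 fell, of 5 astrocyte genes 2 rose and 1 fell, of 6 oligodendrocyte lineage genes 0 rose and 2 fell, of 4 choroid plexus genes 2 rose and 0 fell, and of 4 meningeal genes 1 rose and 0 fell. Limma called 0 of 7 endothelial and pericyte genes, 0 of 5 microglial genes and 0 of 2 erythroid genes. At an unadjusted p under 0.05, where 20.1% of all genes were higher and 18.7% lower, 2 endothelial genes were higher and 1 lower, 3 microglial genes were lower and 1 erythroid gene was higher. By that measure 2 choroid plexus genes were higher and 1 lower, and 1 meningeal gene, Dcn, was higher and 2 lower. The choroid plexus gene Ttr ran from 5.90 to 9.96 in Control, 5.79 to 10.21 in GB, 6.08 to 9.92 in GS and 5.63 to 5.93 in GBS. With GB replicate 2 left out, the genes called lower were 6 of the oligodendrocyte lineage, 4 microglial, 2 meningeal, 1 of the choroid plexus and 1 erythroid, and 1 endothelial and 1 erythroid gene were called higher. With all 3 deviating arrays left out, 6 oligodendrocyte lineage genes, 3 microglial, 2 astrocyte and 1 erythroid gene were lower, 1 endothelial and 1 erythroid gene were higher, and 0 meningeal or choroid plexus genes were lower. Mean levels of endothelial markers were 6.65 to 6.83 in Control and 6.75 to 6.78 in GBS.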

How the data were processed

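Per the submitters' processing notes, the authors made the deposited log2 values with RMA in Affymetrix Expression Console, which corrects background, normalizes arrays and summarises probes. The log2 scale was taken from the range, 2.82 to 13.83. For the software version, probe set library and genome build: not given in the sources used here. Of 35556 probe sets, 21789 had 1 gene symbol in a GEO platform annotation, updated to RefSeq names (GRCm38.p6). The brightest probe set stood for a gene. A gene was tested if at least 3 arrays had it above their 40th percentile. Limma 3.58.1 in R 4.3.3 fitted 4 genotype means to 12 arrays (lmFit, eBayes), with 7 contrasts, two-sided, and adjusted p under 0.05 over all 14195 genes as the threshold. Errors of differences are the fit's SE, and intervals are its 95% intervals, unadjusted. The number of arrays limits the precision. Arrays have no read depth.

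The members and lists were chosen with earlier results of these data known. All members were named; from each list up to 4 tested genes with the lowest adjusted p in GBS minus Control were named. The fit was checked on simulated data. Same-numbered replicates did not deviate together consistently (correlations of -0.818 to 0.739, with 7 of 18 pairs above 0.1), so the numbers were not used as pairs. The array weights used limma's gene-by-gene method, since its default did not converge.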

Additional observations from a re-analysis of the deposited data

How the results depend on the processing

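The calls of Ldha in GBS against Control, GS and GB held in all 24 settings, and other counts of members were small and moved. Leaving out 1 array gave 0 to 2 members lower in GBS minus Control and 0 to 1 lower in GBS minus GB. In GBS minus Control 0 members were lower with a filter at the 60th percentile, where Eno2 was not tested, after quantile normalization and with the replicate block, and 2 were lower with array weights, with only the groups compared, without the 3 deviating arrays and with probe sets that cite RefSeq (a setting added after seeing the data). In GBS minus GS and GBS minus GB, 1 member was lower without the 3 deviating arrays, with array weights, with the receptor-gene covariate and with RefSeq probe sets. That covariate also gave 2 higher in GBS minus GS. Array weights gave 2 higher in GBS minus Control, GS minus Control, GBS minus GS and GBS minus GB, 1 higher in GS minus GB, and 1 higher and 1 lower in the interaction. The replicate block changed no other count of members, and same-numbered arrays did not deviate together consistently. With RefSeq probe sets Hk1 reversed: -0.41, -0.49 and -0.35 against Control, GS and GB (limma adjusted p = 0.0114, 0.00834 and 0.0284). The cause of the other changes was not tested. Shares of all genes called are given only for the fits without GB replicate 2 and without the 3 deviating arrays. Counts of members in the other settings therefore cannot be set against a background and are not read as results about these genes. Dim probe sets (Hk2, Pfkl, Pdk1) lie near the filter level, which limits what can be seen in them.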
